A study of Phanerodontia chrysosporium with 12 samples.

Results

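Abundant transcripts whose average level hardly moved after the white-rot fungus Phanerochaete chrysosporium met oak extractives are described here. They were chosen on the measured values: protein IDs with a mean of 500 or more CPM (the total gene reads of an ID, scaled so that a library sums to 1000000) over 12 libraries, whose highest and lowest group mean of log2(CPM + 2) differed by less than 0.5. A difference of 0.5 on that scale is 1.41-fold. The library size left out proteins 3014073 and 2891358, a pair of IDs whose joint share of a library's reads ran from 3.12% to 65.9%. The rule kept 53 of 13602 IDs, which is 17.4% of the 305 IDs at or above 500 CPM. Since the choice used the means of all 4 times, the levels over time are a description, and no p-value between times is given for any single gene of the 53.

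The cultures were mycelium of the homokaryotic strain RP78, kept as static cultures of 20 ml minimal medium at 37 °C over 4 days. Acetone-soluble extractives of sessile oak heartwood were added in DMSO from a 200 mg/ml stock to 100 µg/ml, and mycelium was harvested at once (T0, called the control in the labels) or after 1, 3 or 6 h. Each time had 3 biological replicates. T0 cultures received the same extractives and solvent, so every group shares them, and a group given DMSO alone was not analysed here.

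In fungi, as in other organisms, the most abundant transcripts of growing cells usually encode the machinery of protein synthesis, central carbon metabolism, the cytoskeleton and protein turnover. Transcripts that hold their level through a treatment are the kind chosen as internal references when other genes are measured. In wood-decay fungi, extractives such as tannins are known to provoke detoxification genes, against which steady transcripts form the backdrop. The files list genes by numeric protein ID and do not pair the IDs with names, so the genes below are described by level, length, replicate spread and shared reads, and no role is given to any of them.

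Total gene reads ran from 2137932 to 10697807 per library, and from 729521 (1 h replicate 2) to 10364009 (3 h replicate 1) without the dominant pair. The fewest reads of any of them in any library were 296, for protein 2990274 in 1 h replicate 2, and the median gene of the 53 had between 518 and 7132 reads per library. Counting error alone would give an SD between 0.0171 and 0.0634 log2 units at those medians, which covers counting error only. In bulk RNA a lower level in every cell and a smaller part of the cells expressing a gene cannot be told apart.

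**Figure D1:**
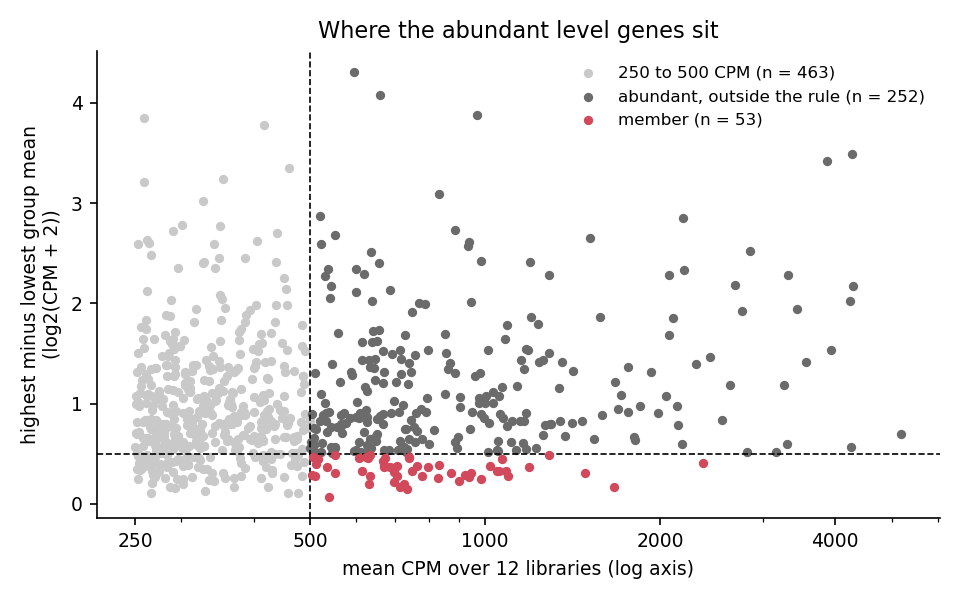
Each point is a protein ID with a mean of at least 250 CPM over the 12 libraries (horizontal axis, log scale), with the difference between its highest and lowest group mean of log2(CPM + 2) on the vertical axis. Dashed lines mark the rule at 500 CPM and a difference of 0.5. The 53 abundant level genes (red) fill the lower right corner, and the 252 other abundant IDs (dark grey) reach a difference of 4.31.

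The 53 genes filled the allowed band unevenly. Their median difference between the highest and lowest group mean was 0.33 (quartiles 0.28 and 0.41), or 1.25-fold. Only 8 of the 53 stayed under 0.25, 31 lay from 0.25 to 0.4, and 14 lay at 0.4 or above. The other 252 abundant IDs had a median difference of 0.99. Both edges of the rule cut through a continuum of values. Proteins 2986124 and 2976795 were just inside, at differences of 0.489 and 0.492, and proteins 3022183 and 2976839 just outside, at 0.505 and 0.508. At the other edge, proteins 2984211 and 3036083 had mean levels of 504 and 505 CPM, and proteins 2949388 and 1488858, with differences of 0.41 and 0.27, fell short at 488 and 484 CPM.

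Together the 53 genes took a nearly fixed share of the reads outside the dominant pair, from 3.94% to 4.72%. The group means were, in order of time, 4.202% ± 0.426 (SD, n = 3), 4.40% ± 0.342, 4.32% ± 0.322 and 4.51% ± 0.244, an evenness that follows from the choice of genes. By mean read level they spanned 504 to 2368 CPM. Per kilobase of gene model, the scale on which genes can be compared, they spanned 164 to 3339 CPM per kb with a median of 920, against a median of 910 for the other abundant IDs. Their lengths, recovered from the counts and the deposited RPKM values, ran from 240 to 3860 nt. The median length was 933 nt (quartiles 627 and 1411), beside 991 nt (quartiles 590 and 1513) for the other abundant IDs and 1207.5 nt for all 13120 IDs with a known length. Length took no part in the rule directly, and these medians are given without a test.

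The small differences that remained were spread over the times, with T0 more often at the bottom than any later time. T0 held the lowest group mean of 23 of the 53 genes, 1 h and 3 h that of 13 each and 6 h that of 4. The highest group mean fell to 6 h in 18 genes, to 1 h in 17, to T0 in 12 and to 3 h in 6. The median shift of the 53 genes from T0, on the log2(CPM + 2) scale, came to 0.15, 0.06 and 0.14 after 1, 3 and 6 h, and that of the other abundant IDs to 0.24, 0.23 and 0.29.

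Protein 2979281 (1493 nt) had the smallest difference between times, 0.07 log2 units, which became 0.17 without 6 h replicate 2 and 0.13 without 1 h replicate 1 or T0 replicate 2. Its levels were 547, 505 and 599 CPM in T0 replicates 1 to 3, 589, 470 and 533 CPM at 1 h, 536, 533 and 569 CPM at 3 h, and 513, 596 and 465 CPM at 6 h. All 4 groups overlapped, and the highest library was 1.29-fold above the lowest, the narrowest range of the 53 genes. Protein 2988650 (1113 nt) came next with a difference of 0.15, at 692, 765 and 627 CPM at T0, 808, 765 and 726 CPM at 1 h, 654, 839 and 743 CPM at 3 h, and 734, 727 and 734 CPM at 6 h. Its groups overlapped as well, and its replicates at 6 h were almost the same. Protein 2908628 (885 nt) had a difference of 0.17 but a wider T0 group, which held 546, 681 and 795 CPM.

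Protein 2925460 (1616 nt) was the most abundant of the 53 by reads, with a mean of 2368 CPM. It read 1851, 2090 and 2270 CPM at T0, 2377, 1761 and 2014 CPM at 1 h, 2417, 2644 and 2862 CPM at 3 h, and 2409, 2963 and 2761 CPM at 6 h. It was near the limit of the rule, with a difference of 0.41, and every library at 3 h and 6 h lay above every library at T0 and 1 h. Under TMM, DESeq2 and upper quartile scaling its difference was 0.52, 0.501 and 0.51, above the limit in each case. Protein 2986197 (1305 nt), the second by reads, was steadier. It had 1712, 1833 and 1757 CPM at T0, 1790, 1628 and 1332 CPM at 1 h, 1514, 1617 and 1603 CPM at 3 h, and 1476, 1782 and 1924 CPM at 6 h, with a difference of 0.17. Its libraries at 1 h and 6 h overlapped those at T0, but every library at 3 h lay below every library at T0.

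Protein 2983778 (1546 nt) shows that a small difference was not always an irregular one. It had the tightest replicates of the 53 genes, with an SD within groups of 0.0701 log2 units, yet a difference of 0.45 between times. Its levels were 409, 400 and 451 CPM at T0, 567, 603 and 552 CPM at 1 h, 569, 580 and 541 CPM at 3 h, and 496, 490 and 534 CPM at 6 h. All 9 later libraries lay above all 3 at T0, and the 6 h libraries lay below those at 1 h and 3 h. Under each of the TMM, DESeq2 and upper quartile scalings its difference was 0.52, so it met the rule under none of them. In 9 of the 53 genes the libraries of at least 1 later time did not overlap those at T0, which was the case for 44.1% of all tested genes. The rule used the same contrast, so nothing is read from that count.

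At the other extreme were genes whose replicates spread widely within a time. Protein 2988250 (3860 nt), the longest of the 53, had the largest SD within groups, 0.536 log2 units, against a difference of 0.28 between times. That difference rested on single libraries: it was 0.69 without 1 h replicate 2, 0.495 without T0 replicate 3 and 0.53 between the medians of the times. The gene read 581, 379 and 963 CPM at T0, 475, 966 and 352 CPM at 1 h, 686, 548 and 771 CPM at 3 h, and 545, 778 and 566 CPM at 6 h. Within a time its libraries differed by up to 2.75-fold, and the groups overlapped throughout. Protein 3039490 (541 nt) had the next largest SD, 0.442, and nearly the reverse pattern. It was at 829, 1942 and 828 CPM at T0, 1460, 1238 and 1902 CPM at 1 h, 933, 1336 and 1004 CPM at 3 h, and 1636, 1036 and 1333 CPM at 6 h. At each of the 4 times the library in which the long gene was lowest was the one in which the short gene was highest. Protein 2872498 (240 nt), the shortest, had 482, 762 and 301 CPM at T0, so its T0 replicates alone spread over much of its 2.77-fold range, the widest of the 53. Protein 2907465 (444 nt), the highest per kilobase at 3339 CPM per kb, was at 1072, 1885 and 1114 CPM at T0 and at 1374, 1316 and 1948 CPM at 1 h. Its high libraries, T0 replicate 2 and 1 h replicate 3, were also those in which protein 3039490 was high.

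As a trend with exceptions over the 53 genes, that opposition followed gene length, which the rule did not use. The median SD within groups was 0.286 log2 units, larger than the counting error given above, and in 14 genes the SD exceeded the difference between times. The SD is that of single libraries and the difference is between means of 3. The count therefore does not say how many of the differences lie within the spread of replicates. The largest single axis of the deviations from group means held 67.9% of their variance, and a gene's place on it had a Pearson r of 0.79 with log2 length and of -0.00 with log2 mean CPM over the 53 genes. These are descriptions across genes measured in the same 12 libraries, which are not independent replicates. Divided by length into 3 classes, the 18 shortest genes (240 to 672 nt) had a median SD within groups of 0.347, the middle 17 (785 to 1221 nt) 0.258 and the 18 longest (1246 to 3860 nt) 0.257.

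**Figure D2:**
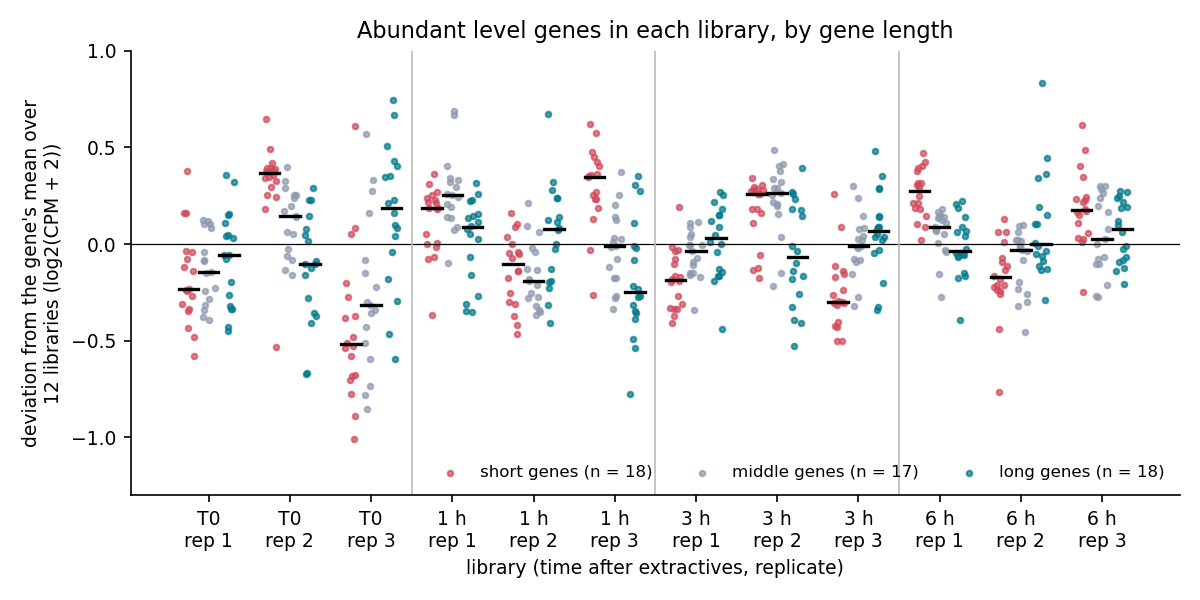
Each point is a gene of the 53 in a library (horizontal axis), with its deviation from its own mean over the 12 libraries in log2(CPM + 2) on the vertical axis; colours mark the 3 length classes and black bars the median of a class. The short class has its highest median, 0.37, in T0 replicate 2 and its lowest, -0.52, in T0 replicate 3.

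The pattern was clearest between replicates of the same time. For each time, the pair of libraries whose length dependence over the 53 genes differed most was picked after the values were seen. Between T0 replicates 3 and 2, 17 of the 18 short genes were lower in replicate 3, with a median difference of -0.89 log2 units (1.85-fold), whereas 13 of the 18 long genes were higher there, with a median of 0.28. Between 1 h replicates 2 and 3, 16 of 18 short genes were lower in replicate 2 (median -0.51) and 12 of 18 long genes higher (median 0.22). Between 3 h replicates 3 and 2, 17 of 18 short genes were lower in replicate 3 (median -0.44) and 11 of 18 long genes higher (median 0.12). Between 6 h replicates 2 and 1, 17 of 18 short genes were lower in replicate 2 (median -0.42) and 11 of 18 long genes higher (median 0.04). Across the 53 genes these differences had a Pearson r with log2 length of 0.75, 0.77, 0.62 and 0.64 in order of time. Among the other 252 abundant IDs, in the same libraries, it was 0.66, 0.40, 0.68 and 0.30. In these pairs the dependence on length was present in both sets. The pairs were picked on the 53 genes, so the r values of the sets are not a like comparison. Among the T0 pairs not picked, replicates 1 and 2 gave 0.64 for the 53 genes and 0.67 for the other IDs. Replicates 1 and 3 gave -0.62 and -0.09. Protein 42616 (621 nt), picked with its values known, was the 1 short gene that went the other way at T0, with 896, 476 and 1052 CPM in replicates 1 to 3. It also went the other way in the pairs at 1 h (0.21) and 3 h (0.39), but not at 6 h (-0.02). Of its reads, 11.1% were not unique, so its levels are less certain.

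**Figure D3:**
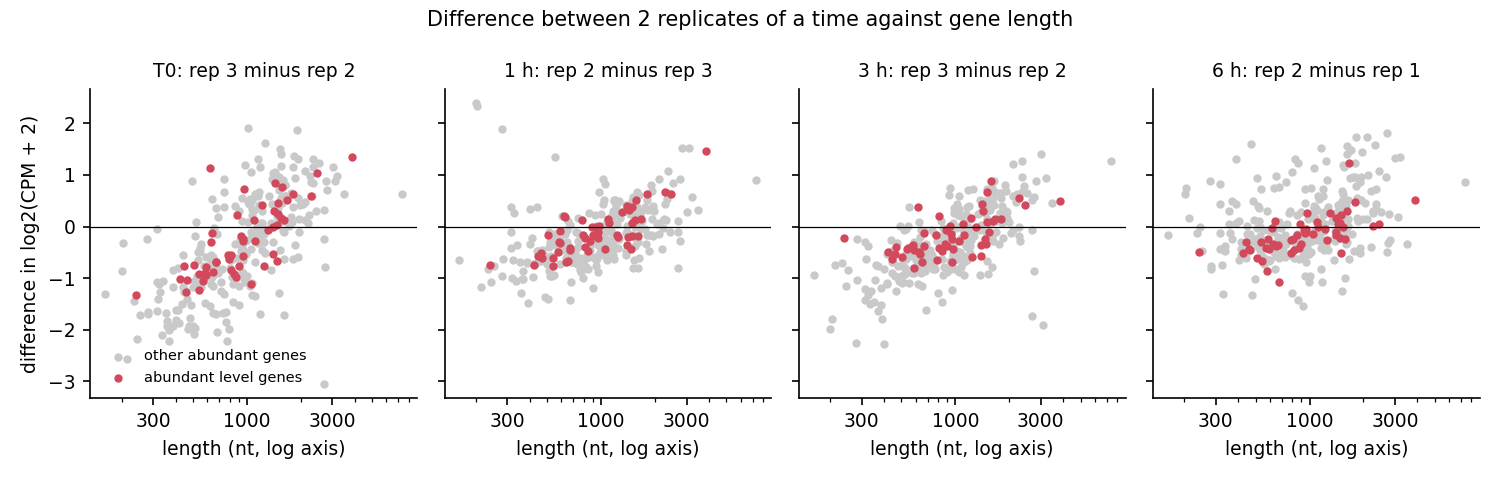
Each panel compares 2 replicates of a time, with gene length (log axis) on the horizontal axis and the difference in log2(CPM + 2) on the vertical axis. The 53 abundant level genes (red) rise with length in all 4 panels (r from 0.62 to 0.77), within the cloud of the 252 other abundant IDs (grey). Short genes are mostly negative, and long genes lie on both sides of 0, with medians from 0.28 at T0 to 0.04 at 6 h.

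Expressed as a slope, a library's deviation per doubling of gene length ran over the 53 genes from -0.32 log2 units in 1 h replicate 3 to 0.41 in T0 replicate 3. The groups overlapped, with slopes, in order of time, from -0.28 to 0.41, from -0.32 to 0.13, from -0.15 to 0.17 and from -0.16 to 0.15. The slope had the same sign in the 53 genes and in the other abundant IDs in 11 of 12 libraries, 1 h replicate 2 being the exception with 0.13 and -0.12. T0 replicates 2 and 3, whose slopes were -0.28 and 0.41, had 1600180 and 1225852 reads outside the dominant pair. Their shares of the dominant pair were 46.8% and 50.9%. The part of depth, the dominant pair, RNA quality or library preparation in these slopes was not tested.

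**Figure D4:**
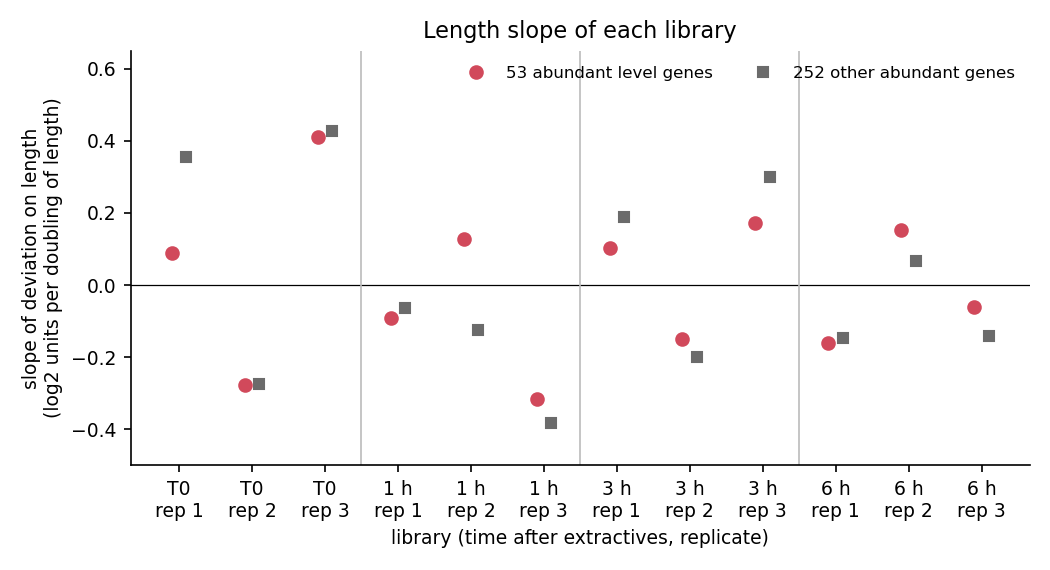
The vertical axis is the slope of a library's deviations on log2 gene length, in log2 units per doubling of length, and the horizontal axis lists the 12 libraries. Red circles are the 53 abundant level genes and grey squares the 252 other abundant IDs; the circles of each time lie on both sides of 0.

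The small differences from T0 also varied with length, and they depended on which T0 libraries were kept. Of the 18 short genes, 16 had a higher group mean at 1 h than at T0, 9 at 3 h and 15 at 6 h. Among the 75 other abundant IDs of that length the counts were 63, 51 and 61. Each T0 library was then left out, a setting added with the results in view. Without T0 replicate 3 the short genes above T0 numbered 11, 3 and 11, and the other abundant IDs of that length 54, 44 and 55. Without T0 replicate 2 they numbered 16, 12 and 16, and the other IDs 66, 59 and 67. Without T0 replicate 1 the short genes above T0 numbered 14, 8 and 14, and the other IDs 57, 50 and 57. Of the 18 long genes, 6 were higher at 1 h than at T0, 8 at 3 h and 9 at 6 h, beside 35, 43 and 43 of 81 other abundant IDs of that length. Without T0 replicate 3 the long genes above T0 numbered 10, 12 and 11, and the other IDs 34, 53 and 49. Without T0 replicate 2 the long genes numbered 6, 8 and 9, and without T0 replicate 1 they numbered 5, 9 and 9. With the length trend of each library removed, a setting added with the results in view, the median SD within groups of the 53 genes went from 0.286 to 0.199, and 50 of them still met the rule.

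Few reads of these genes were shared with other gene models. All reads were unique for 43 of the 53. A read that was not unique occurred in 10 (18.9%), compared with 10.3% of the other abundant IDs and 14.0% of all IDs with a read, and more than 5% of the reads were not unique in 5 (9.43%, compared with 2.78% of the other abundant IDs). Protein 6737 (792 nt) had the largest such part, 29.9% of its reads, from 22.2% to 36.9% by library. Counted on all its reads it was at 558, 806 and 520 CPM at T0 and at 762, 764 and 854 CPM at 1 h, with a difference of 0.37 between times, and on unique reads the difference was 0.42. Protein 2990274 (1481 nt) followed with 16.9%, and its difference was 0.28 on either count. The levels of such genes are uncertain, because reads could be split between near-identical copies. With unique reads throughout, 50 of the 53 genes met the rule.

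How large a difference between times these libraries leave room for was read from the width of the 95% intervals of the fold changes against T0. These were fitted with edgeR over all 11813 tested genes, all 53 among them. The median standard error of the log2 fold change was 0.30 at each of 1, 3 and 6 h, and the 95% interval reached a median of 0.64 log2 units to either side, or 1.56-fold at 1 h and 1.55-fold later. For all tested genes this reach was 0.80, 0.77 and 0.77. The whole interval lay within 2-fold of T0, from -1 to 1, for 37 of the 53 genes after 1 h, 48 after 3 h, 35 after 6 h and 29 at all 3 times. The rule picked genes with close group means in these same libraries, so these counts follow in part from the choice. The same count over all tested genes was not made, so nothing is read from them. Within 0.5 log2 units of T0 lay the whole interval of 0 of the 53 at any time. The design thus leaves room for differences larger than the rule allowed for every one of them. The median log2 fold changes were 0.19, 0.09 and 0.23, beside 0.01, 0.03 and -0.00 for all tested genes. Above 0 were 37, 33 and 45 of the 53 genes, and the share above 0 among all tested genes was not counted. An upward shift was not particular to the 53. On the log2(CPM + 2) scale the other abundant IDs had median shifts of 0.24, 0.23 and 0.29, beside 0.15, 0.06 and 0.14 for the 53.

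For the steadiest gene, protein 2979281, the log2 fold change was 0.03 (interval -0.48 to 0.54) at 1 h, 0.03 (-0.47 to 0.54) at 3 h and 0.08 (-0.43 to 0.58) at 6 h. Protein 2983778, with its tight replicates, had a log2 fold change of 0.52 at 1 h with an interval from 0.03 to 1.01, where the scaling of edgeR set it somewhat above the difference under the rule. Protein 3039490 had the widest interval, from -0.44 to 1.23 at 1 h.

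**Figure D5:**
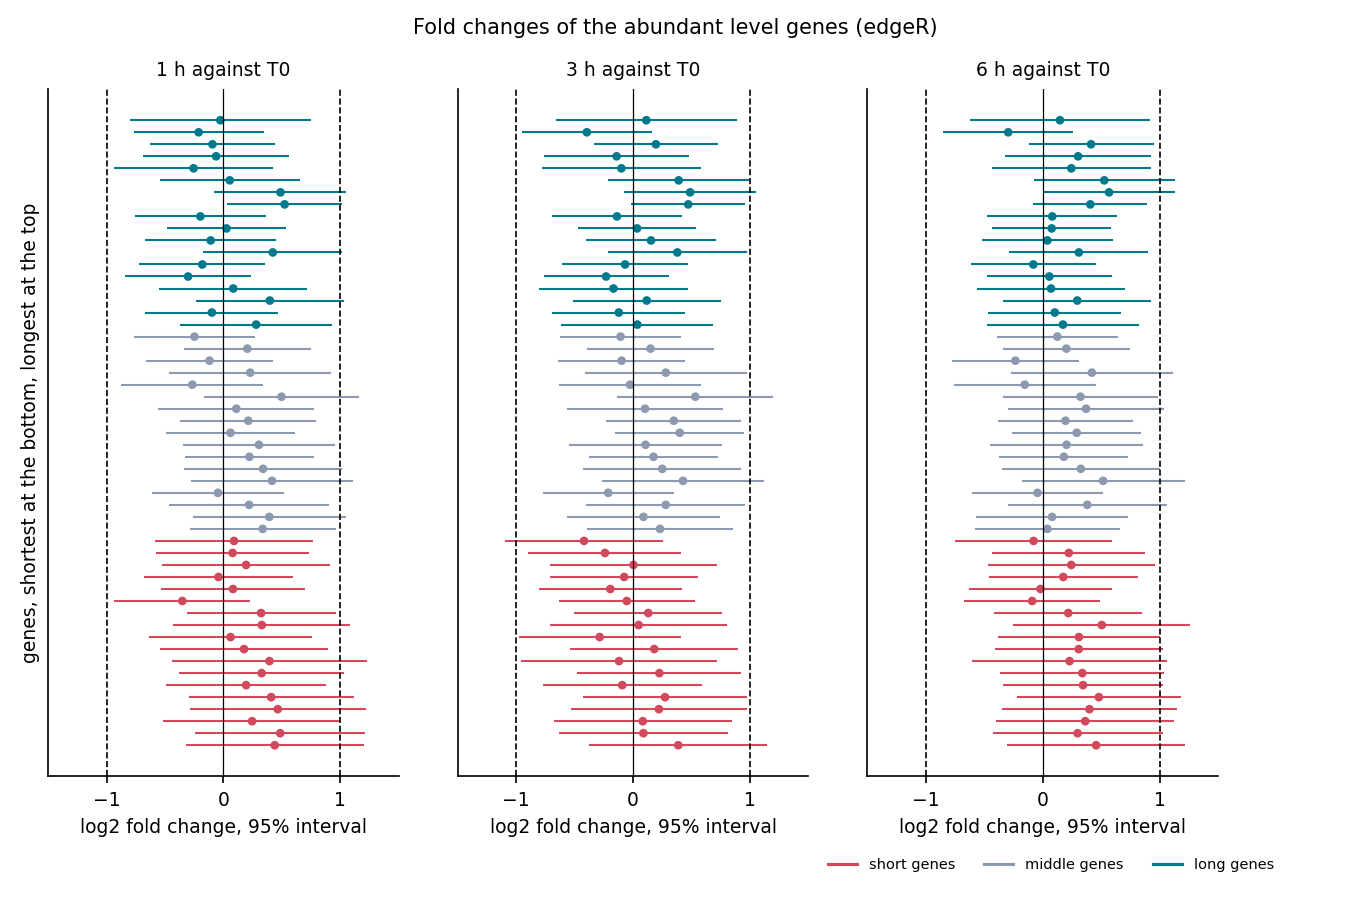
Each row is a gene of the 53, ordered by length from the bottom and coloured by length class; points are edgeR log2 fold changes against T0 and lines their 95% intervals, with dashed lines at -1 and 1. At 3 h 48 of the 53 intervals stay between the dashed lines, compared with 37 at 1 h and 35 at 6 h.

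In the joint edgeR quasi-likelihood test of the 4 times, 0 of the 53 genes passed at a Benjamini-Hochberg adjusted p under 0.05, where 12.1% of all tested genes did (1424 of 11813). At an unadjusted p under 0.05 the count was 0 of 53 and 27.2% of all tested genes, and DESeq2 and limma-voom also called 0 of the 53. The rule used the same contrast, so nothing is read from these counts. DESeq2 called 2542 genes in all. Removal of T0 replicate 1 left 924 calls over all genes, removal of 1 h replicate 1 or 3 left 942 or 886, and removal of 3 h replicate 1 left 912, with 0 of the 53 called in each of these fits. The median biological coefficient of variation in the edgeR fit was 0.268 for the 53 genes, 0.304 for the other abundant IDs and 0.303 for all tested genes. A wide spread between replicates makes it harder to pass the rule, so this order is in part a matter of the choice.

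Membership depended on what the levels were scaled to. With the dominant pair kept in the library size, as in the deposited RPKM values, the 53 genes took from 1.38% of the reads (1 h replicate 2) to 4.27% (1 h replicate 1), with group means, in order of time, of 2.74% ± 0.934 (SD, n = 3), 2.70% ± 1.46, 3.98% ± 0.0248 and 3.84% ± 0.0634. On that scale their median difference between times was 0.81, and 2 of the 53 kept a difference under 0.5. The dominant pair itself averaged, in the same order, 34.0% ± 25.8, 40.2% ± 28.4, 7.64% ± 6.98 and 14.9% ± 3.74. With TMM scaling 39 of the 53 met the rule and their highest difference was 0.60, and with DESeq2 size factors 40 did. Membership also depended on T0 replicates 2 and 3. Without replicate 2 the rule kept 34 genes, 31 of them among the 53, and without replicate 3 it kept 85, 48 of them among the 53. When the median of the 3 libraries of a time took the place of the mean, 33 of the 53 met the rule.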

How the data were processed

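The authors deposited 1 table per sample with counts of unique gene reads and of total gene reads for 13602 protein IDs, per the file headers. The deposited tables also hold RPKM values, which follow from total gene reads to a relative gap of 1.6e-08 and served only to recover gene lengths. Which aligner, counting tool, genome build, annotation and strand setting were used is not given in the sources used here. Samples were grouped by the time in their labels, 3 per group. No pair of replicates agreed within sampling noise (smallest ratio of chi-square to its degrees of freedom 7.9).

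The members, the lists and the alternatives were chosen with earlier results of these data known. CPM was taken over total gene reads without proteins 3014073 and 2891358, and levels were averaged as log2(CPM + 2). Fold changes came from edgeR 4.0.16 in R 4.3.3 (glmQLFit, TMM, filterByExpr, group as the only term, all 12 libraries, 8 residual degrees of freedom), with standard errors back-calculated from the F statistic and 95% intervals from the t distribution. The script was tested on simulated counts. Named genes are the extremes in level, level per kb, difference between times, spread, length and shared reads, and the IDs nearest to the thresholds. Planned counts by gene family were not made, since the IDs carry no names. Alternatives were other scalings, pseudocounts and thresholds, unique reads, DESeq2 1.42.0, limma-voom (limma 3.58.1), the replicate number as a block and each library left out in turn.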

Additional observations from a re-analysis of the deposited data

How the results depend on the processing

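The number of genes kept by the rule, 53, became 11 with the dominant pair in the library size (0 of them among the 53, of which 35 were at 500 CPM or more there and 2 under a difference of 0.5), 86 at a difference below 0.6, 140 at a mean of at least 250 CPM, 11 at a mean of at least 1000 CPM and 86 with the length trend of each library removed, chosen with the data in view. It stayed between 39 and 56 under the other pseudocounts, scalings, unique reads, a difference below 0.4, the median of a time and the removal of T0 replicates 2 and 3 together, which was also added later. With 1 library left out it ranged from 34 to 85. The share of reads taken by the 53 genes moved to 2.74%, 2.70%, 3.98% and 3.84% at T0, 1, 3 and 6 h when set against all gene reads, and with 1 library left out it ranged from 3.96% to 4.33%, 4.24% to 4.58%, 4.14% to 4.43% and 4.43% to 4.65%. The median SD within groups was 0.199 without the length trend and ranged from 0.253 to 0.299 with 1 library left out. The median standard error of the fold changes ranged from 0.274 to 0.347 at 1 h, from 0.295 to 0.35 at 3 h and from 0.275 to 0.353 at 6 h with 1 library left out.

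The joint test called 2542 genes by DESeq2, 570 at an adjusted p under 0.01 and from 886 to 1888 with 1 library left out, and 0 of the 53 in every fit run. With the replicate number as a block it called 1180 genes. Same-numbered libraries of T0 and 3 h deviated together (r of 0.58, 0.71 and 0.54 over 4416 IDs of at least 50 CPM), but not those of every pair of times (r from -0.64 to 0.71). Of the 12 libraries, 7 correlated best with one of their own number. Whether the numbers pair the cultures was not tested, and the labels do not state it. Where values moved, the cause was not tested.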

Other observations

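Of the 53 genes, 19 met the rule under all 3 other scalings (TMM, DESeq2 size factors and upper quartile) and with any 1 of the 12 libraries left out. This subset was formed after the data were seen and is given without a test. It held 2 short, 9 middle and 8 long genes by length class, with lengths from 639 to 1802 nt and a median of 1113 nt, against a median of 801.5 nt for the other 34. Neither the shortest nor the longest of the 53, proteins 2872498 and 2988250, was in it.

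By single library, T0 replicate 3 was the lowest of the 12 for 22 of the 53 genes and the highest for 9 others, so the same library held the bottom or top of the range for more genes than any other. T0 replicate 2 was the lowest for 4 and the highest for 8.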
